A study of Mus musculus with 6 samples.

Results

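The MYC, MAX and MXD network was followed through 9 genes in mouse bone marrow-derived mast cells (BMMCs): Myc, Mycn, Max, Mxd1, Mxi1, Mxd3, Mxd4, Mnt and Mlx. The members were chosen by name, as array rows whose platform annotation gives exactly 1 gene symbol equal to a member. Each of the 9 had 1 such row, so that 9 of the 30102 genes measured were members. BMMCs are primary cells, here grown from C57BL/6J femur marrow over 6 weeks in interleukin 3 and a supernatant with stem cell factor until they have matured into mast cells. In the ionomycin group (3 arrays), cells were exposed for 1 h in Tyrode's buffer to 1 µg/mL ionomycin, an ionophore that carries calcium into the cell and triggers degranulation. In the naive group (3 arrays), cells spent the same 1 h in the buffer alone. Cells of both groups were washed and returned to culture medium for 3 h, so the RNA is from 4 h after the start of activation. The study set out to find transcripts that change after the first wave of genes tied to degranulation.

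MYC proteins are basic helix-loop-helix leucine zipper transcription factors that bind DNA only as a pair with MAX, at E-box sequences such as CACGTG, and activate genes of growth, ribosome production and cell division. MXD1, MXI1, MXD3, MXD4 and MNT pair with the same MAX and bind the same sites, where they recruit SIN3 and histone deacetylases and lower transcription. MLX is a MAX-like partner that pairs with some of these repressors and with the glucose-responsive factors MondoA and ChREBP. Myc mRNA is short-lived and is known as an early response to growth factors and antigen receptors, whereas Mxd1, Mxi1 and Mxd4 are known from cells that stop dividing and mature.

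All 9 members lay above the background level of 6.05 (log2 signal, the 95th percentile of 1771 odorant, pheromone and taste receptor genes, by their mean over the 6 arrays) on all 6 arrays. The mast cell label fitted its markers: 13 of 13 measured markers, among them Kit, Fcer1a and Cpa3, were above background by their 6-array mean. The mean over the 13 was 12.04 to 12.08 on the ionomycin arrays and 12.15 to 12.21 on the naive arrays. Some markers of other cells were above background too: 8 of 9 for macrophages and monocytes, 7 of 10 for neutrophils and progenitors, 7 of 9 for lymphoid and erythroid cells and 3 of 4 for basophils. By the same mean 18897 of all 30102 genes were above background, so such counts alone do not show that other cells were present. The macrophage list averaged 7.17 to 7.47 on the ionomycin arrays and 7.15 to 7.38 on the naive arrays, the neutrophil list 6.67 to 6.75 on the ionomycin arrays and 6.61 to 6.71 on the naive arrays. The lymphoid list averaged 6.63 to 6.67 on the ionomycin arrays and 6.42 to 6.45 on the naive arrays, with ionomycin above on all 3, and the basophil list 8.49 to 9.35 on the ionomycin arrays and 8.53 to 9.32 on the naive arrays. Their part in the results was not tested. The basophil protease gene Mcpt8 was at 9.62 ± 0.86 in ionomycin and 9.53 ± 0.72 in naive arrays (log2 signal, SD, n = 3 each). No gene of these marker lists passed in limma. At an unadjusted p under 0.05, where 10.2% of all genes were higher and 5.44% lower, the counts were 1 of 13 mast cell markers higher and 4 lower, 3 of 9 macrophage markers higher, 3 of 9 lymphoid and erythroid markers higher, 1 of 4 basophil markers lower and 0 of 10 neutrophil markers. A block of 2 levels, replicate 1 against the other replicates, is used here and below. The labels do not set replicate 1 apart, so this block rests on the values of these same arrays. With it the fit called 2.25% of all genes higher and 2.47% lower. Among these were the mast cell genes Ms4a2 (-0.62, limma adjusted p = 0.0102), which encodes the beta chain of the IgE receptor, and Mrgprb2 (-0.88, limma adjusted p = 0.0456), a receptor for basic secretagogues. Also called was the natural killer cell receptor gene Ncr1 (0.90, limma adjusted p = 0.0334). Mrgprb2 had 5.86, 5.77 and 5.93 on the ionomycin arrays, all below background, so the size of its fall is uncertain. Ms4a2 and Mrgprb2 were chosen after their values were seen. Array medians over all rows were 5.96 to 6.03 for ionomycin and 5.88 to 5.99 for naive. Centring each array on its median would lower every difference between the groups over all 6 arrays by 0.066 on the log2 scale. Positive differences smaller than that, such as those of Mitf and Rbbp7, turn negative then. Differences by replicate number, or without some of the arrays, would shift by other amounts. Whether replicates are separate cultures or animals is not in the labels, so that the p-values speak only to the spread among these samples, possibly a technical one.

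No network gene passed the test for a difference between the groups. In limma over all genes 0 of the 9 passed an adjusted p of 0.05, where 0.349% of all genes did, and at an unadjusted p under 0.05 the count was also 0, against 15.6% of all genes. With the replicate number as a block 0 of the 9 passed, against 0.505% of all genes, and with a block of only 2 levels (replicate 1 against the others) 0 of the 9, against 4.72% (2.25% higher and 2.47% lower). In the first of these fits 1 of the 9, Mlx, had an unadjusted p under 0.05, against 25.4% of all genes. In the second, Mycn and Mxd4 did (limma unadjusted p = 0.0482 and 0.0441), and the share of all genes was not counted there. The mean was higher after ionomycin for 4 members and lower for 5, against 19455 and 10647 of all genes. The median difference over the members was -0.07 on the log2 scale, against 0.05 over all genes. The groups' arrays did not overlap for 2 of the 9 (22.2%), near the 26.2% of all genes. Both had ionomycin below naive, as had 7.31% of all genes, and 0 had it above, as had 18.9%. Of the members, 4 of the 9 (44.4%) differed the same way at the 3 replicate numbers, against 52.5% of all genes. In cultured cells measured in bulk, fewer cells with a transcript and less of it per cell cannot be told apart.

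**Figure D1:**
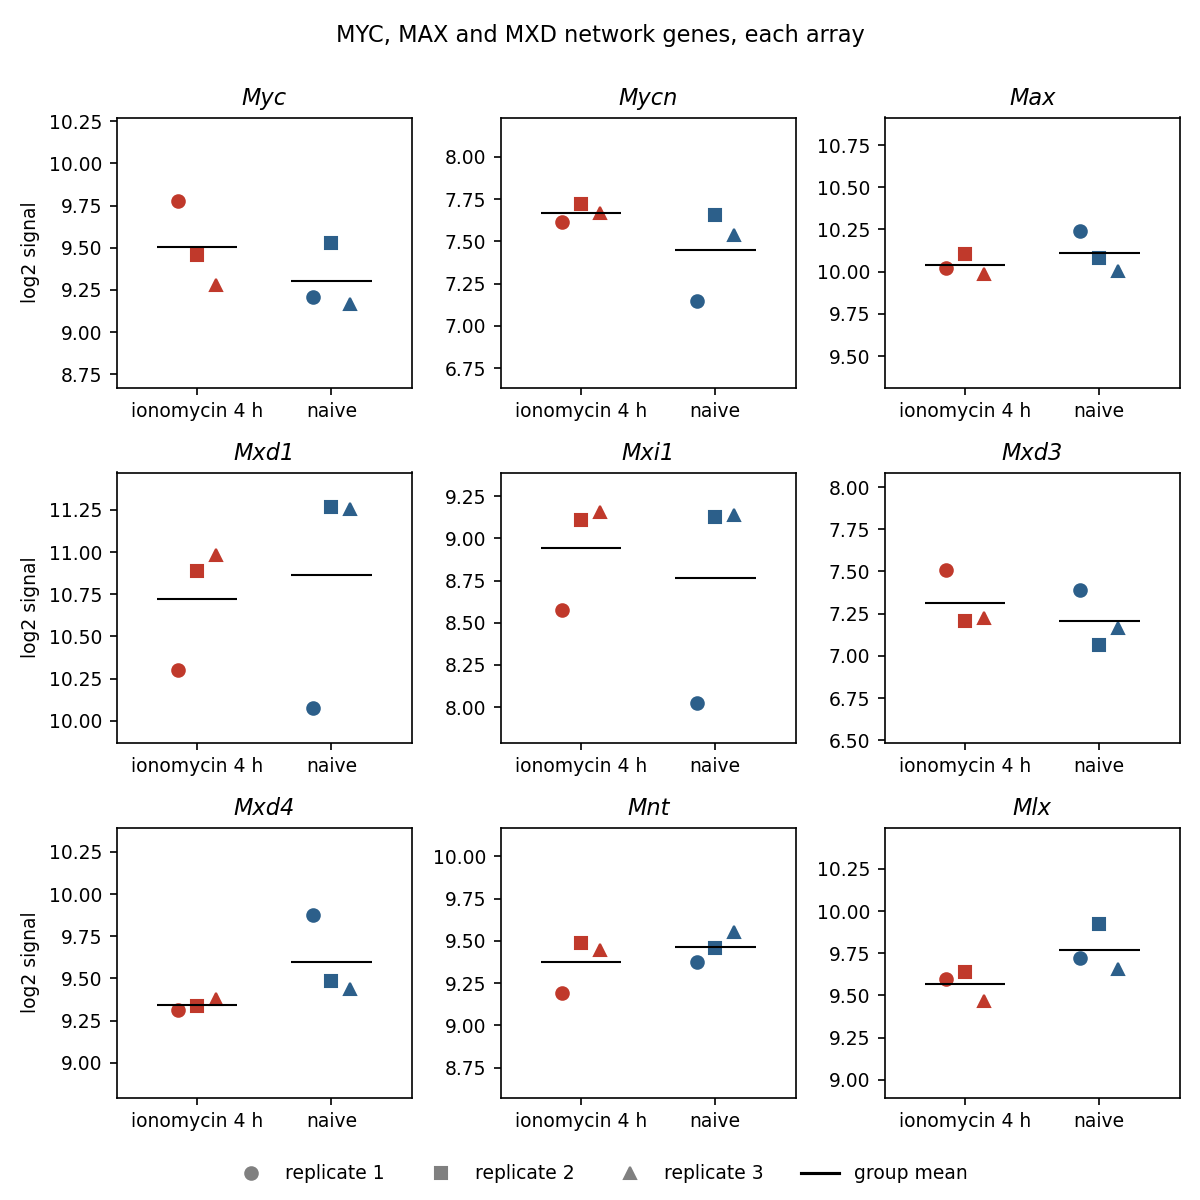
Log2 signal (vertical axis, a span of the same height in every panel) of the 9 network genes on each of the 3 ionomycin arrays (left, red) and 3 naive arrays (right, blue); marker shapes give the replicate number and horizontal bars the group means. The groups overlap in 7 panels, and Mxd4 and Mlx have all ionomycin arrays below all naive arrays. The replicate 1 arrays (circles) lie lowest for Mxd1, Mxi1, Mycn and Mnt in both groups.

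Myc itself had log2 signals of 9.78, 9.46 and 9.28 on ionomycin arrays 1, 2 and 3, against 9.21, 9.53 and 9.16 on naive arrays 1, 2 and 3. The highest value was that of ionomycin replicate 1, and naive replicate 2 lay above ionomycin replicates 2 and 3. The difference, ionomycin minus naive, was 0.20 ± 0.16 (log2, SE), a 1.15-fold ratio with a 95% interval of 0.886 to 1.498, and it did not pass (limma adjusted p = 0.522, and 0.379 with the replicate number as a block). By replicate number the differences were 0.57, -0.07 and 0.11, so that most of the mean came from replicate 1, and without both replicate 1 arrays the difference was 0.02 (limma adjusted p = 0.941).

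Mycn, which encodes N-MYC, the MYC protein best known from neural and progenitor cells, had 7.62, 7.72 and 7.67 on the ionomycin arrays, against 7.14, 7.66 and 7.54 on the naive arrays. Naive replicate 1 was the lowest array, and the groups overlapped at naive replicate 2. The difference of 0.22 ± 0.13 (log2, SE) did not pass (limma adjusted p = 0.426, and 0.230 with the block), although ionomycin was higher at each of the 3 replicate numbers (0.47, 0.07 and 0.13). Without naive replicate 1 the difference was 0.073, and without both replicate 1 arrays 0.099.

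Max is the shared partner of the network. Its log2 signal was 10.02, 10.10 and 9.99 on the ionomycin arrays, against 10.24, 10.08 and 10.01 on the naive arrays, with overlapping groups. The difference was -0.07 ± 0.08 (log2, SE; limma adjusted p = 0.653), and the 95% interval of the ratio, 0.834 to 1.09, was the narrowest of the 9 members on the log2 scale.

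Of the repressors, Mxd1 and Mxi1 had the widest spread within groups. Mxd1 stood at 10.30, 10.89 and 10.98 on the ionomycin arrays, against 10.08, 11.26 and 11.25 on the naive arrays, and replicate 1 was the lowest in both groups. Its difference was -0.14 ± 0.36 (log2, SE; limma adjusted p = 0.853, and 0.519 with the block). By replicate number the signs were opposite (0.23, -0.38 and -0.27). Without both replicate 1 arrays Mxd1 was at -0.32 ± 0.06 (log2, SE; limma adjusted p = 0.0723), which did not pass either, where 2.83% of all genes did, and without naive replicate 1 alone the difference was -0.53 (limma adjusted p = 0.326).

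Mxi1 followed the same order of arrays, with 8.57, 9.11 and 9.15 on the ionomycin arrays, against 8.03, 9.13 and 9.14 on the naive arrays. Replicates 2 and 3 of the groups lay within a narrow band, and replicate 1 lay below it in both groups. The difference was 0.18 ± 0.33 (log2, SE; limma adjusted p = 0.794), with 0.55 at replicate number 1, -0.02 at 2 and 0.01 at 3, and it turned to -0.0017 without both replicate 1 arrays.

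Mxd3, a member of the family known to be expressed in dividing cells during S phase, had 7.51, 7.21 and 7.22 on the ionomycin arrays, against 7.39, 7.07 and 7.16 on the naive arrays. Here replicate 1 was the highest of each group, and ionomycin was higher at each number by 0.12, 0.14 and 0.06. The difference of 0.11 ± 0.12 (log2, SE) did not pass (limma adjusted p = 0.660; 0.266 under the block). It was 0.010 without ionomycin replicate 1, 0.037 without naive replicate 2 and 0.20 without naive replicate 1.

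Mxd4 and Mlx were the members whose groups did not overlap. Mxd4, another MAX-binding repressor, had 9.31, 9.34 and 9.38 on the ionomycin arrays, against 9.88, 9.49 and 9.44 on the naive arrays. Every ionomycin value lay below every naive one, and the distance was widest at replicate 1. The difference was -0.26 ± 0.12 (log2, SE), a ratio of 0.837 with a 95% interval of 0.682 to 1.03 (limma adjusted p = 0.349, and 0.238 with the block). It was -0.10 without both replicate 1 arrays (limma adjusted p = 0.371).

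Mlx, the MAX-like partner of MondoA and ChREBP, had 9.60, 9.64 and 9.47 on the ionomycin arrays, against 9.72, 9.92 and 9.66 on the naive arrays. All 3 ionomycin arrays lay below the naive ones, narrowly so between ionomycin replicate 2 and naive replicate 3. The difference was -0.20 ± 0.09 (log2, SE; limma adjusted p = 0.337), and by replicate number it was -0.12, -0.28 and -0.19. With the block the unadjusted p was 0.0213 and the adjusted p 0.149 in limma.

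Mnt, the repressor expressed most widely across tissues, had 9.19, 9.49 and 9.45 on the ionomycin arrays, against 9.37, 9.46 and 9.55 on the naive arrays. The groups overlapped, and the difference was -0.09 ± 0.10 (log2, SE; limma adjusted p = 0.658, and 0.410 with the block).

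**Figure D2:**
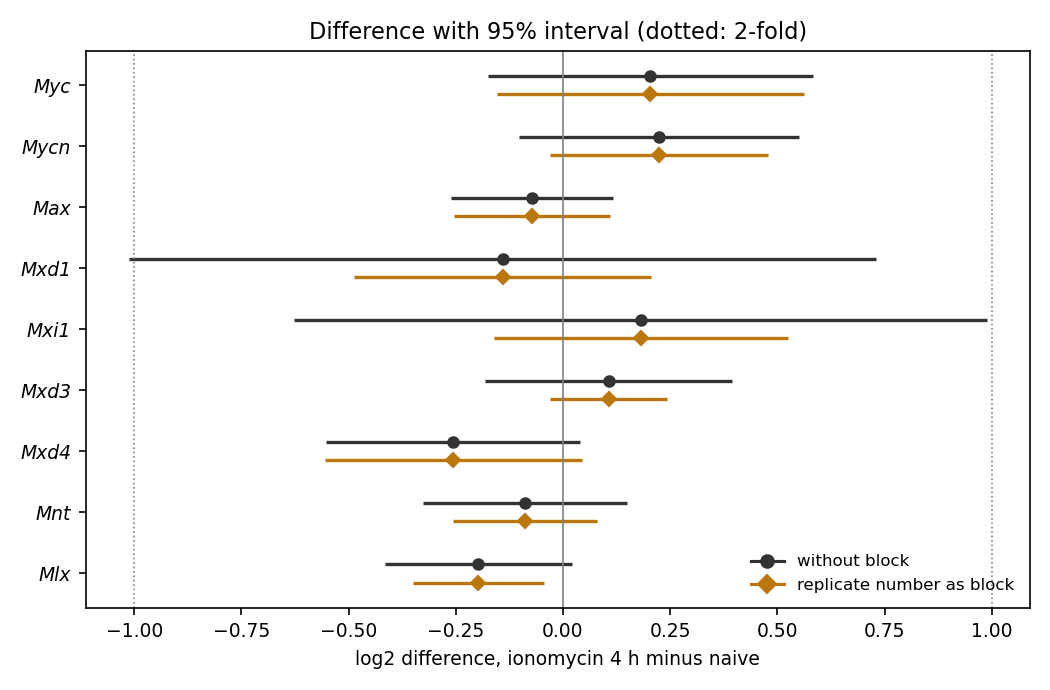
Log2 difference, ionomycin 4 h minus naive (horizontal axis), of the 9 network genes, with points for the difference and lines for its 95% interval from limma without a block (dark circles) and with the replicate number as a block (amber diamonds); dotted lines mark a 2-fold change in each direction. The interval lies inside 2-fold for 8 genes without the block, all but Mxd1, and for 9 with it; these intervals are not adjusted for the number of genes.

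The intervals show how large a change these arrays could still hold. Without a block the 95% interval lay within 2-fold in both directions for 8 of the 9 members. The exception was Mxd1, whose interval ran from 0.496-fold to 1.66-fold, and that of Mxi1 reached 1.98-fold. With the replicate number as a block the interval of all 9 lay within 2-fold, and that of Mxd1 was 0.713-fold to 1.15-fold.

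E-boxes of the kind that MYC and MXD proteins bind with MAX were looked for in the promoters of the members themselves. RefSeq promoters (GRCm38.p6, 250 bases before to 50 after an annotated start) were matched for 8 of the 9 genes, all but Myc. The letters CACGTG, which read the same on both strands, stood once in those of Max, Mxd4, Mnt and Mlx, and were not in the windows of Mycn, Mxd1, Mxd3 or any of the 3 promoters of Mxi1. Thus 4 of 8 members held the E-box, against 8.96% of the 17963 measured genes with a promoter and 7.15% of all 32851 promoters. The 4 promoters that hold it, which include those of Mxd4 and Mlx, are shown to give the place and surroundings of the motif, from 250 bases before the start to 20 after it, 5′ to 3′ on the gene's strand, with the E-box in capitals.
Max (chr12:76962229-76962498, - strand): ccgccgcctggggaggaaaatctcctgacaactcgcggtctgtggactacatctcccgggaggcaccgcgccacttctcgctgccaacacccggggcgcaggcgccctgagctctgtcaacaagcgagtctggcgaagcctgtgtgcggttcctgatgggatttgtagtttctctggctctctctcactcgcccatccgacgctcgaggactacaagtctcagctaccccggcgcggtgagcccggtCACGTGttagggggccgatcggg
Mxd4 (chr5:34187691-34187960, - strand): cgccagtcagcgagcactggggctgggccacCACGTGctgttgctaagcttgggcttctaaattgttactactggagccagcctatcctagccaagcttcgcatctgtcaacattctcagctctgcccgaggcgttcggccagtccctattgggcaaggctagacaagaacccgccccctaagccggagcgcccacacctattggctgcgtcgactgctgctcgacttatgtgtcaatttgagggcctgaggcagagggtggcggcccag
Mnt (chr11:74830674-74830943, + strand): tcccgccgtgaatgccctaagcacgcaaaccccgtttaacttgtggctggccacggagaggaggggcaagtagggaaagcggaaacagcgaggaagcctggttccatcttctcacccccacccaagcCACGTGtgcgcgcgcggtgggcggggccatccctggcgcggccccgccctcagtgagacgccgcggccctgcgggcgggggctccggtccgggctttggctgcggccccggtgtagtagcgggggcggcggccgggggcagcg
Mlx (chr11:101087040-101087309, + strand): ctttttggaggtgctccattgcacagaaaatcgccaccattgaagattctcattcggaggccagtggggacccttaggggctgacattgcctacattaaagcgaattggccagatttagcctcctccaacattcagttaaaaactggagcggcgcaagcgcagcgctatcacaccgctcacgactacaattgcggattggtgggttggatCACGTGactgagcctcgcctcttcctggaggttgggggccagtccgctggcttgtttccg

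The E-box began at position -3 in Max, -219 in Mxd4, -123 in Mnt and -40 in Mlx, counted from the start that each window is built on. That start is the outer end of the RefSeq gene for Mxd4, but lies 75 bases inside the gene for Max, 118 for Mnt and 583 for Mlx. Measured from the gene's outer end, the E-box of Mlx began 543 bases inside the gene and that of Max 72 bases inside. All 4 of these genes had a lower mean after ionomycin (-0.07, -0.26, -0.09 and -0.20 on the log2 scale, in that order), and of the 4 members without the motif Mxd1 was lower and Mycn, Mxd3 and Mxi1 higher. None of these differences passed, that of Max was 6.7e-05 without both replicate 1 arrays and that of Mnt 0.0035 without ionomycin replicate 1, and no test was made of the motif. Over all measured genes with a promoter, the median difference was 0.03 for the 1609 with the motif and 0.05 for the 16354 without it. A higher mean after ionomycin was found for 56.3% of the genes with the motif and 63.1% of those without it. Of the genes with it 9 rose and 1 fell (0.622% called by limma), and of those without it 50 rose and 14 fell (0.391%).

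Mxd1 and Mxi1 differed more by replicate number than by treatment. Over all genes too, both replicate 1 arrays lay away from the rest, on a first principal component with 52.6% of the variance. Mxd1 was lower on replicate 1 than on the mean of replicates 2 and 3 by a log2 difference of -0.63 among ionomycin arrays and -1.18 among naive arrays, which is 0.646-fold and 0.441-fold. Mxi1 differed likewise by -0.56 and -1.11. Averaged over the groups, these gaps were wider than those of 98.1% of all genes for Mxd1 and 97.7% for Mxi1. Mxd3 went the other way, at 0.29 among ionomycin and 0.27 among naive arrays, a gap wider than that of 82.3% of genes, whereas that of Mlx was wider than only 6.38%. Replicate 1 lay below both other replicates in both groups for 4 members, Mxd1, Mxi1, Mycn and Mnt, and above them for 1, Mxd3, against 34.1% and 18.2% of all genes. Among genes above background the shares were 34.8% and 24.9%.

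Markers of dividing cells moved with the replicate number as well. Their mean over 17 measured genes was 9.67, 7.96 and 7.87 on ionomycin arrays 1, 2 and 3 and 10.11, 8.22 and 7.97 on naive arrays 1, 2 and 3. For 16 of the 17, replicate 1 was above both other replicates in both groups. Mki67, which encodes the proliferation antigen Ki-67, was 9.43-fold higher on replicate 1 than on the other replicates among ionomycin arrays and 8.53-fold higher among naive arrays. In both groups the replicate array with the highest cycling markers thus had the lowest Mxd1, Mxi1, Mycn and Mnt and the highest Mxd3. Replicate 1 was the lowest in both groups for 34.1% of all genes and the highest for 18.2%. The mean of 4 basophil markers differed by replicate number too. It was 9.35, 8.54 and 8.49 on ionomycin arrays 1, 2 and 3 and 9.32, 8.62 and 8.53 on naive arrays 1, 2 and 3. Against 18.2% of all genes, replicate 1 was above both other replicates in both groups for 2 of the 4. These were the protease genes Mcpt8, at 10.60, 9.14 and 9.11 on the ionomycin arrays and 10.36, 9.20 and 9.03 on the naive arrays, and Prss34, at 10.70, 8.85 and 8.60 on the ionomycin arrays and 10.35, 8.94 and 8.70 on the naive arrays; Prss34 was chosen after its values were seen. Cd200r3, the brightest of the 4, did not share this, at 11.01, 11.01 and 11.06 on the ionomycin arrays. On the naive arrays it had 11.41, 11.32 and 11.22. Itga2 lay below background, with means of 5.15 in ionomycin and 5.11 in naive arrays. The part of cycling cells and of basophils in the Mxd1, Mxi1, Mycn, Mnt and Mxd3 values was not tested.

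**Figure D3:**
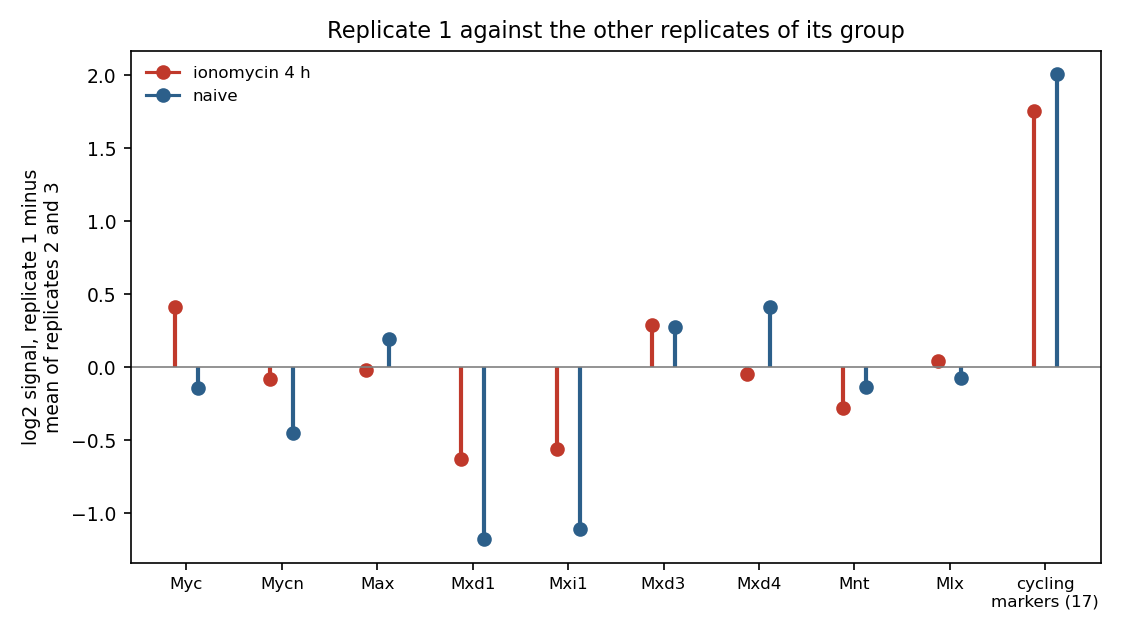
Log2 signal of replicate 1 minus the mean of replicates 2 and 3 (vertical axis) among ionomycin arrays (red, left of each pair) and naive arrays (blue, right) for the 9 network genes and for the mean of 17 cycling cell markers. Mxd1 and Mxi1 are lower on replicate 1 in both groups, by 0.56 to 1.18 in size, and Mycn and Mnt are lower by less. Mxd3 is higher, and the cycling markers are higher by well over 1 on the log2 scale.

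Of the remaining network genes 3 of 4 listed were measured, and 0 passed (1 higher and 1 lower when p was not adjusted, against 10.2% and 5.44% of all genes). Mlxip, which encodes MondoA, averaged 9.85 ± 0.05 in ionomycin and 9.64 ± 0.20 in naive arrays (log2 signal, SD, n = 3 each; limma adjusted p = 0.365). Mga, a large protein that pairs with MAX in a repressive Polycomb complex, averaged 9.12 ± 0.12 in ionomycin and 9.42 ± 0.06 in naive arrays (limma adjusted p = 0.201), with groups that did not overlap. The difference in Mga of -0.30 was called with the block of 2 levels (limma adjusted p = 0.0451) but not with the replicate block (0.100), and the block of 2 levels called 2.47% of all genes lower. Mlxipl, which encodes ChREBP, was at 0.21 (limma adjusted p = 0.277). Of 8 other E-box binding factors of the helix-loop-helix zipper class, 0 passed by limma (1 higher and 0 lower when p was not adjusted, against 10.2% and 5.44% of all genes), and Mitf, the mast cell and melanocyte factor, differed by 0.03 and Srebf2, a regulator of sterol synthesis, by -0.14 (limma adjusted p = 0.948 and 0.468).

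Among the proteins that MYC and MXD recruit, 0 of 13 coactivators and 0 of 13 corepressors passed by limma, with 0 higher and 1 lower in each list when p was not adjusted, against 10.2% and 5.44% of all genes. The coactivator list had a median difference of -0.14 (log2), with 11 of 13 genes lower, and its brightest members Hcfc1, a chromatin adaptor, and Supt5, a transcription elongation factor, were at -0.16 and -0.24 (limma adjusted p = 0.530 and 0.225). By replicate number Hcfc1 was at -0.45, -0.13 and 0.09 and Supt5 at -0.32, -0.31 and -0.09. The corepressor list had a median of -0.02, and the deacetylase gene Hdac1 and the histone-binding Rbbp7 were at -0.02 and 0.06 (limma adjusted p = 0.971 and 0.928). Of 13 genes that control the stability of MYC protein 0 passed by limma (0 higher and 2 lower when p was not adjusted, against 10.2% and 5.44% of all genes), with a median of -0.17 and 11 of 13 lower. With the block of 2 levels 1 was called, Trim33 (-0.40, limma adjusted p = 0.0363, against 0.0979 without a block), chosen after its value was seen. That block called 2.47% of all genes lower. The brightest members of this list were Pim1, a kinase that stabilises MYC (0.47, limma adjusted p = 0.347), and Gsk3b, a kinase that marks MYC for degradation (-0.20, limma adjusted p = 0.360). Because the list holds genes of both kinds, its median gives no direction for MYC protein. The median of all genes was 0.05, and 10647 of the 30102 were lower.

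Of 41 measured genes known to be activated by MYC, 2 rose and 0 fell, where 0.289% of all genes rose and 0.0598% fell. With the block the counts were again 2 and 0, against 0.395% and 0.110%. Both were mitochondrial chaperone genes, Hspd1 (HSP60) and Hspe1 (HSP10), which are also heat shock genes. Hspd1 had 11.71, 11.68 and 11.77 on the ionomycin arrays, against 10.72, 10.39 and 10.32 on the naive arrays, a 2.37-fold ratio (limma adjusted p = 0.0176, and 0.0376 with the block). Hspe1 had 10.36, 10.41 and 10.51 on the ionomycin arrays, against 9.36, 9.49 and 9.42 on the naive arrays, 2.01-fold (limma adjusted p = 0.0114, and 0.0305 with the block). The groups were well apart for both genes. The list's median was 0.01 (-0.05 after centring), against 0.05 over all genes (-0.01 after centring). In the list 23 genes were higher and 18 lower, against 19455 and 10647 of all genes. The genes Tfrc, Odc1, Slc7a5, Gadd45b and Tgfbr2 below were picked after their values were seen.

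Tfrc, the transferrin receptor, averaged 10.10 ± 0.09 in ionomycin and 9.04 ± 0.40 in naive arrays (log2 signal, SD, n = 3 each), and Odc1, the first enzyme of polyamine synthesis, averaged 11.58 ± 0.10 in ionomycin and 10.94 ± 0.49 in naive arrays. Neither passed (limma adjusted p = 0.109 and 0.288, and 0.0662 and 0.182 with the block). Under the 2-level block 4 of the 41 rose and 0 fell, against 2.25% and 2.47% of all genes: Hspd1, Hspe1, Tfrc (limma adjusted p = 0.0155) and the amino acid transporter gene Slc7a5 (0.42, adjusted p = 0.0427). By replicate number, 30 of the 41 MYC-activated genes were above both other replicates on replicate 1 in both groups, as the cycling markers were. The same held for 18.2% of all genes, 24.9% of genes above background and 7 of the 13 MXD corepressor genes.

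Of 16 genes known to be repressed by MYC 0 passed by limma, while without adjustment 7 were higher and 1 lower (p under 0.05), against 10.2% and 5.44% of all genes. The brightest were the cell cycle inhibitor gene Cdkn1a, at 0.18 (limma adjusted p = 0.633), and Id2, an inhibitor of helix-loop-helix factors, at 0.10 (0.902). Gadd45b, a stress-induced gene, had the largest difference of the list: it had 11.59, 11.01 and 10.89 on the ionomycin arrays, against 8.61, 9.17 and 9.47 on the naive arrays. Its ratio of 4.22 did not pass without the block (limma adjusted p = 0.0520) or with it (0.0812), and passed with the block of 2 levels (0.0208), as did 1 other gene of the list, the TGF-beta receptor gene Tgfbr2 (-0.75, 0.0470). The block of 2 levels called 2.25% of all genes higher and 2.47% lower.

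Of 6 genes known as targets of MLX and MondoA, 0 passed by limma (1 higher and 1 lower when p was not adjusted, against 10.2% and 5.44% of all genes). Txnip, an inhibitor of glucose uptake and the best known of them, averaged 12.39 ± 0.18 in ionomycin and 12.86 ± 0.22 in naive arrays (log2 signal, SD, n = 3 each), and the groups did not overlap. Its difference of -0.47 was even across replicate numbers (-0.43, -0.46 and -0.51). It did not pass without the block (limma adjusted p = 0.236) or with it (0.0565). It passed with the block of 2 levels (limma adjusted p = 0.0135), which rests on these same arrays and called 2.47% of all genes lower. Pfkfb3, a regulator of glycolysis, was at 0.54 (limma adjusted p = 0.598).

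Of the 17 cycling markers 0 passed without the block by limma, with 0 at an unadjusted p under 0.05 as well. With the block 2 fell, Mki67 (-0.90, limma adjusted p = 0.0372) and Top2a (-0.77, 0.0330), where 0.110% of all genes fell. With the block of 2 levels 3 fell, these 2 and Ccnb2 (-0.43, limma adjusted p = 0.0434), where 2.47% of all genes fell. Mki67 had 11.79, 8.71 and 8.40 on the ionomycin arrays, against 12.59, 9.77 and 9.23 on the naive arrays, and it was lower after ionomycin at each replicate number. Pcna, the DNA polymerase clamp, was at 0.32 (limma adjusted p = 0.709, and 0.132 with the block).

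**Figure D4:**
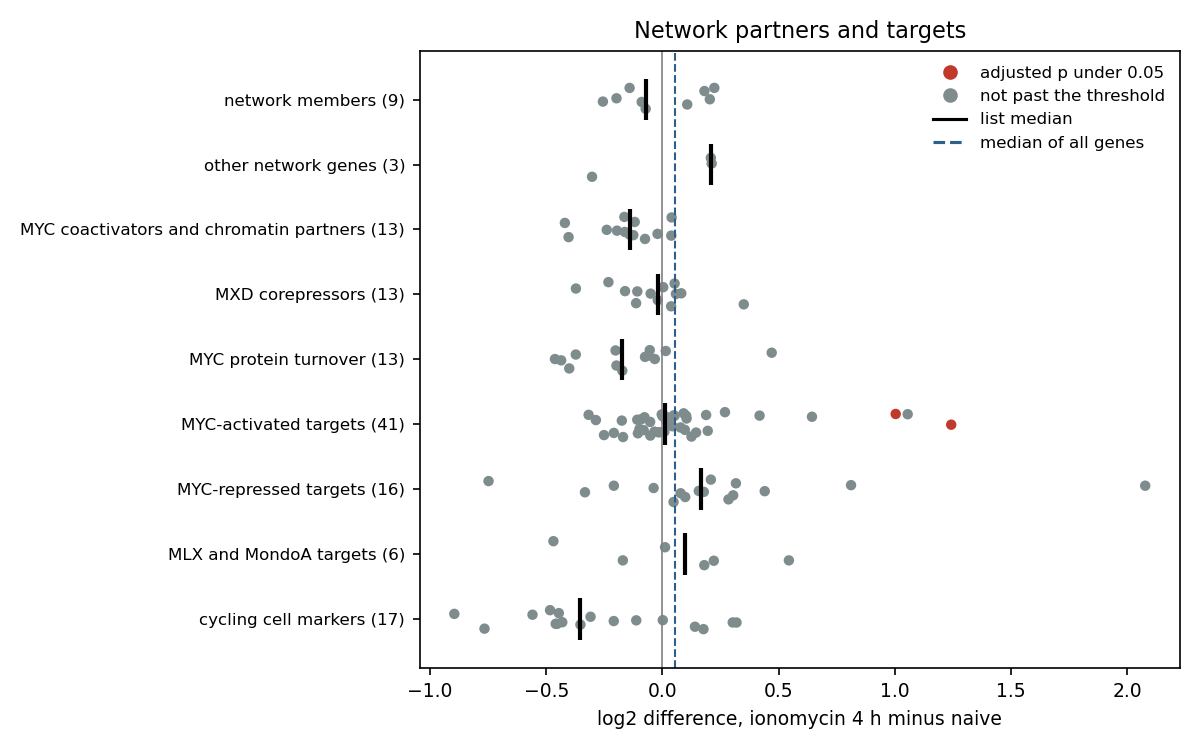
Log2 difference, ionomycin 4 h minus naive (horizontal axis), of each measured gene (points, spread vertically at random) in the network and in 8 lists of related genes, with list medians as black bars, the median of all genes (0.05) as a dashed line and the number of measured genes in parentheses. Only Hspd1 and Hspe1, in the MYC-activated list, pass the threshold (red), and the point farthest right is Gadd45b.

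The genes whose values over the 6 arrays were most like those of Myc, among 13826 named genes above background, were Cd2bp2 (Pearson's r = 0.977), Otub2 (0.973) and Lrrc38 (0.973). For Mlx, the member with the smallest unadjusted p, they were Ascc1 (0.9751), Jmjd8 (0.9749) and Sesn1 (0.9726). Each r is over 6 arrays that share scaling and the split between replicate 1 and the rest, and is a description only.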

How the data were processed

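Total RNA of 6 samples was measured on biotin-labelled whole-transcript Affymetrix arrays. Per the submitters' processing notes the authors used the R package oligo, and deposited log2 signals for 65770 rows. The version, how rows were summarized and normalized, and the genome build: not given in the sources used here. The log2 scale is inferred from the range of the values (3.01 to 14.6), and array centring is unknown. Of the rows, 30439 have 1 symbol, 2146 several and 33185 none. Symbols were updated through Entrez IDs with RefSeq (GRCm38.p6, 22653 rows found, 827 changed), and the row with the highest 6-array mean was kept, giving 30102 genes.

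Ionomycin minus naive was fitted in limma 3.58.1 (R 4.3.3; data.table, version 1.17.8) on all 6 arrays, without a block or dim filter, two-sided, with Benjamini-Hochberg adjustment over all genes and a threshold of 0.05. The fit was tested on simulated data with independent arrays and changes far larger than those of the members. That test does not show whether changes as small as theirs would be called. Across genes, deviations from the group mean correlated between same-numbered replicates at r = 0.711, 0.476 and 0.469 for numbers 1, 2 and 3. Numbers 2 and 3 crossed gave 0.481 and 0.524, so these values set only number 1 apart and do not show a pairing for 2 and 3. Values with the number as a block are given where they bear on a result.

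The members, 15 lists (184 of 203 genes measured) and tests were chosen with earlier results of these data known. Lists are described by counts and medians, with no set test. Named from each list were up to 3 genes past the threshold with the largest change, or the brightest until 2 were named, and for likeness the 3 highest r. The motif search covered both strands.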

Additional observations from a re-analysis of the deposited data

How the results depend on the processing

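No member passed in any of 17 alternatives, chosen with earlier results of these data known. None passed in 1 more, added after seeing the data (block with centring). Thus 0 of 162 values passed, with a smallest limma adjusted p of 0.0698 (Mlx, array weights). The labels do not set replicate 1 apart, so the block of 2 levels rests on the values of these same arrays. Over all genes, where 87 rose and 18 fell, the counts were 119 and 33 with the replicate block, 677 and 744 with a block of 2 levels (replicate 1 against the rest), 69 and 32 after centring, 139 and 127 with block and centring, 78 and 9 with trend and robust settings, 2240 and 1654 with array weights, and 423 and 429 without both replicate 1 arrays. Without moderation 0 and 0 passed, against 3258 and 1318 when p was not adjusted. Leaving out 1 array gave 1 to 95 higher and 0 to 55 lower genes. The fewest higher genes came without ionomycin replicate 2, and the most of both kinds without naive replicate 1. The lower genes were 0 without any 1 of the ionomycin arrays and without naive replicate 2. The replicate block changed no call of a member. Directions of 5 members were not stable: Myc was at -0.00029 with array weights; without both replicate 1 arrays Max was at 6.7e-05 and Mxi1 at -0.0017; and without 1 array Mxd1 ran from -0.53 to 0.069, Mxi1 from -0.19 to 0.37 and Mnt from -0.15 to 0.0035. Mycn, Mxd3, Mxd4 and Mlx kept their direction in all 18, but without 1 array Mycn ran from 0.073 to 0.33, Mxd3 from 0.010 to 0.20, Mxd4 from -0.34 to -0.12 and Mlx from -0.25 to -0.12. The median difference of all genes, 0.05 as deposited, was 0.01 after quantile normalization and -0.01 after centring. Causes were not tested. The number of arrays limits the precision.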
